A study of Mus musculus with 49 samples.

Results

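Genes of the interferon response and of antigen processing for MHC class I were followed in whole ankle, cells of the synovial fluid and leukocytes of peripheral blood during serum-transfer arthritis in mice. A gene was analysed when the array held a probe set annotated to its symbol alone, and where several did, the brightest by its average across all 49 arrays stood for it. Of 50 genes considered, 44 were analysed, among 8251 genes in all. They fell into 19 genes known mainly as type I interferon responders, 10 known mainly as interferon gamma responders, 7 of antigen processing, 7 interferon receptors and their kinases, and Irf5, an interferon regulatory factor of myeloid cells. Stat2, Bst2, Ifi203, Ifi205, Psme2 and Irf2 were not analysed here. The mice were male, 6 weeks old and of B6 background. They were given arthritogenic serum, named as K/BxN serum in most fluid labels and only as serum in the others. K/BxN serum carries autoantibodies that cause joint inflammation in recipients. Days count from the first injection, and day 0 was the reference for ankle and blood. Ankle was taken at day 0 (4 arrays), day 1 (2), day 3 (3), day 7 (4), day 12 (3) and day 18 (3). Day 0 replicate 2 of ankle carries a short name that can be read as day 2, but its title and the rest of its description give day 0, and it was kept there. Fluid cells were taken at day 3 (3 arrays), day 7 (4), day 12 (3) and day 18 (3), and day 3 was their reference. Blood leukocytes were taken at days 0, 1, 3, 7 and 12 (3 arrays each) and day 18 (2).

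Cells that sense viral or other nucleic acid release type I interferons, which act through the receptor chains Ifnar1 and Ifnar2 and the kinases Jak1 and Tyk2. T cells and natural killer cells release interferon gamma, which acts through Ifngr1, Ifngr2, Jak1 and Jak2. Type I interferon drives genes through a promoter element called ISRE and interferon gamma through one called GAS, and many genes answer to both. Antigen processing cuts proteins with the immunoproteasome and moves the peptides through the Tap transporter onto class I molecules, and interferon gamma is a known inducer of this machinery.

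Promoters of 5 genes are shown as examples. Ifit1 and Isg15 rose in ankle. Irf8, Igtp and Tap1 were among the members lower in fluid than in blood, although their arrays of the 2 tissues overlapped. Each sequence holds the 250 bases before the start site, from RefSeq on GRCm38.p6, read 5′ to 3′ on the gene's strand, and capitals mark matches to the ISRE core GAAANNGAAA or the GAS core TTCNNNGAA on either strand.
Ifit1, chr19:34640639-34640888, plus strand: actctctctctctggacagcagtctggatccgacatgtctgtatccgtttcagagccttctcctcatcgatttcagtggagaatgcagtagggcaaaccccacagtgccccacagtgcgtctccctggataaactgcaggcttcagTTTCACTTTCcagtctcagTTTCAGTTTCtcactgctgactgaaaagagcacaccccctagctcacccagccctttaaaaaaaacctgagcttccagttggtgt
Isg15, chr4:156200819-156201068, minus strand: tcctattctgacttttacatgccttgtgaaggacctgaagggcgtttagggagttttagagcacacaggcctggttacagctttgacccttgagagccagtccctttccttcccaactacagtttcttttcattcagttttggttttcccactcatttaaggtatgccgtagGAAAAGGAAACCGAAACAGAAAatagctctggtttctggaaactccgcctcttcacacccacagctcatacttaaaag
Igtp, chr11:58199306-58199555, plus strand: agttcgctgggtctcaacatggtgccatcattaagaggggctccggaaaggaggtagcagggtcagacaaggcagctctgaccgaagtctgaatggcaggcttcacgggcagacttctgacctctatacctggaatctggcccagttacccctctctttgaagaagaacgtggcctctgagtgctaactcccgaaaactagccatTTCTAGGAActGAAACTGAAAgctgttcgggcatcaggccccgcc
Irf8, chr8:120736108-120736357, plus strand: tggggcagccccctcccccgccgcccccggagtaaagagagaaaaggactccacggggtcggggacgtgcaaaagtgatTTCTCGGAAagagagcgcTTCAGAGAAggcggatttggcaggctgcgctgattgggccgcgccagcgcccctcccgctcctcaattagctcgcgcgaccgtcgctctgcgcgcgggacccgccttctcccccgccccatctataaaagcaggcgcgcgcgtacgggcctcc
Tap1, chr17:34187306-34187555, plus strand: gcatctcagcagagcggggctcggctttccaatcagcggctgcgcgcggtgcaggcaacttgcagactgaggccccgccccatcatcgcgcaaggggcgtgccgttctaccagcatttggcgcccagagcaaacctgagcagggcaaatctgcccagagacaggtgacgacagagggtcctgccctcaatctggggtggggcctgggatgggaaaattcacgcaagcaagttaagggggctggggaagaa

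Ifit1 held 2 ISRE matches, and Isg15 held 3 that overlap each other in 1 run. Igtp held a GAS match followed by an ISRE match, and the Irf8 window shown held 2 GAS matches and no ISRE match. Irf8 has another start site, whose window held no match and is not shown. The Tap1 window held neither. It shares 225 bases with the window of Psmb9, which is read in the other direction. Of 37 analysed members with a promoter in the table, 10 (27.0%) held an ISRE match, against 3.46% of the 27025 genes of the table, and 7 (18.9%) held a GAS match, against 8.13%. Any gene with several start sites was counted if at least 1 of its windows held a match. The ISRE count was 5 of 14 type I members, 5 of 9 interferon gamma members and 0 of 6 for antigen processing. A match is a description of these letters and not a site of binding.

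Levels are given as log2 of the deposited intensity, on a scale where probe sets of different genes cannot be compared with each other. Array medians ran from 57.7 to 64.1 in intensity. The 34 negative control probe sets had a 95th percentile of 6.85, called background here, and 11 members had no group mean above it while 13 had every group mean above it. A fold is given only where both means lay above background, and a difference that involves a mean under it may understate the true change. Preparation differed between tissues and cannot be told apart from tissue, since ankle RNA went through 2 rounds of amplification. Day 3 replicate 1 and day 7 replicate 1 of fluid were washed out of dissected ankles, and fluid day 7 replicate 4, fluid day 18 replicate 3 and blood day 3 replicate 3 carry another description with 2 rounds. Ankle replicate 1 of days 0, 7 and 12 held liver transcripts. Replicate 1 of day 1 was grouped with them on a weaker signal. Summed intensity of 5 liver markers reached 1454, 1030 and 3911 at days 0, 7 and 12 but 411 at day 1. The albumin gene Alb reached 6.39 at day 1, under background. The labels call only blood samples biological replicates, so that p-values elsewhere measure the spread between samples, which may be technical. Fewer cells of a type and less RNA per cell cannot be told apart in these bulk samples.

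**Figure D1:**
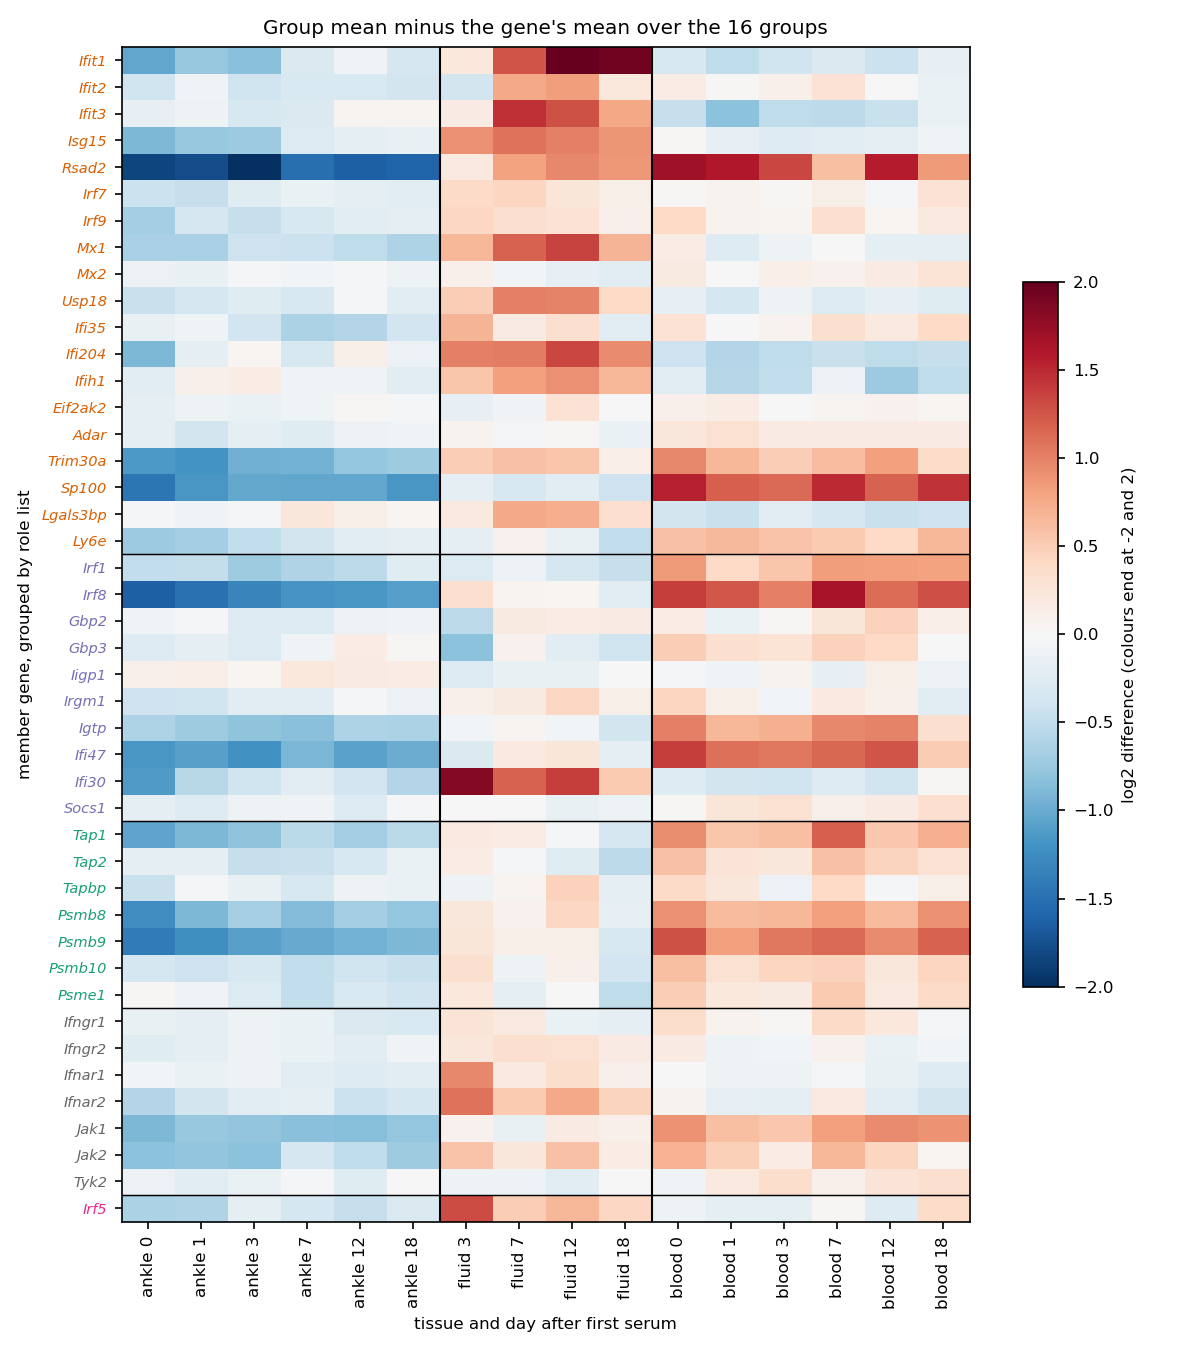
Group mean of each of the 44 genes minus its own mean over the 16 groups of tissue and day, in log2 units, with genes in rows by role and groups in columns by tissue. Red marks a mean above and blue one below the gene's own mean: most rows are blue in ankle, Psmb9, Irf8 and Sp100 have their reddest cells in blood, and Ifit1, Isg15 and Mx1 have theirs in fluid.

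In ankle, 2 of the 19 type I genes rose over time and the others did not pass at any day. Ifit1, which encodes a protein that binds foreign RNA, and Isg15, a ubiquitin-like modifier, were higher at days 7, 12 and 18 than at day 0. They were the only members past the threshold (adjusted p under 0.05) in more than 1 ankle comparison. At day 7 the count was 3 of 44 members higher and 0 lower, where 6.73% of all genes passed (3.09% higher and 3.64% lower). At day 12 it was 2 higher and 0 lower, where 3.24% of all genes passed (1.87% and 1.37%). At day 18 it was again 2 and 0, where 2.01% passed (1.13% and 0.885%). At day 3 no member passed, where 0.23% of all genes did (0.182% higher and 0.0485% lower). At day 1 limma called 0 genes of all tested (0%), with 150 genes (1.82%) and 1 member at an unadjusted p under 0.05. At days 7, 12 and 18 the share of members higher (6.82%, 4.55% and 4.55%) lay above that of all genes and the share lower below it, with each count resting on 2 or 3 genes.

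Ifit1 in ankle stood at 4.35, 4.23, 4.74 and 4.48 on day 0, 4.89 and 4.56 on day 1 and 4.69, 4.41 and 4.84 on day 3. It then stood at 5.53, 5.04, 5.31 and 4.88 on day 7, 5.68, 5.25 and 5.24 on day 12 and 5.18, 5.21 and 5.06 on day 18. Every array of days 7, 12 and 18 lay above every array of day 0, while days 1 and 3 overlapped day 0. With each difference given as log2 ± its standard error from limma, Ifit1 rose by 0.74 ± 0.16 (adjusted p = 0.00661) at day 7, by 0.94 ± 0.17 (adjusted p = 0.00332) at day 12 and by 0.70 ± 0.17 (adjusted p = 0.0369) at day 18. All these levels lay under background. The calls of days 7 and 12 were kept in every alternative run that tested Ifit1, but that of day 18 was lost without day 0 replicate 1 (adjusted p = 0.0845), replicate 2 (0.0687) or replicate 4 (0.077), and without day 18 replicate 1 (0.137), replicate 2 (0.146) or replicate 3 (0.125).

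Isg15 in ankle stood at 6.51, 6.08, 6.32 and 6.32 on day 0, 6.69 and 6.22 on day 1 and 6.61, 6.33 and 6.54 on day 3. Later it stood at 7.18, 6.86, 7.2 and 6.53 on day 7, 7.27, 6.82 and 6.97 on day 12 and 7.09, 7.01 and 7.09 on day 18. All later arrays from day 7 on lay above those of day 0, and the group mean crossed background between day 3 (6.49) and day 7 (6.94). Isg15 rose by 0.64 ± 0.16 (adjusted p = 0.0208) at day 7, 0.71 ± 0.17 (adjusted p = 0.0274) at day 12 and 0.76 ± 0.17 (adjusted p = 0.0262) at day 18. At day 7 it missed the threshold without day 0 replicate 3 (adjusted p = 0.0516) or replicate 4 (0.0519) and without day 7 replicate 1 (0.0571) or replicate 3 (0.0827). At day 12 it was lost without day 0 replicate 3 (0.0724) or replicate 4 (0.0646) and without day 12 replicate 1 (0.0938) or replicate 3 (0.0837). At day 18 it was lost without day 0 replicate 2 (0.0505), replicate 3 (0.0683) or replicate 4 (0.06) and without day 18 replicate 1 (0.111), replicate 2 (0.0845) or replicate 3 (0.135).

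Ifi204, a DNA-sensing protein of the p200 family, had the widest range of ankle means among the type I members and no call. Its ankle arrays read 7.63, 8.64, 7.49 and 7.66 on day 0, 8.45 and 8.68 on day 1 and 8.73, 8.52 and 9.14 on day 3. They read 8.43, 8.69, 8.82 and 7.77 on day 7, 8.98, 8.85 and 8.79 on day 12 and 8.98, 8.81 and 8.13 on day 18. Day 0 replicate 2 lay among the later values except those of day 12, which were all higher, and the other 3 arrays of day 0 lay below every later array. The difference from day 0 was 0.94 ± 0.28 (adjusted p = 0.254) at day 3, 0.57 ± 0.26 (adjusted p = 0.245) at day 7 and 1.02 ± 0.28 (adjusted p = 0.0607) at day 12. Its probe set is one that the array design marks as shared by a gene family, so that related p200 genes may add to the value, and its other probe sets differed by -0.21 and 0.45 at day 12.

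The median difference from day 0 of the 19 type I genes in ankle was 0.07, 0.18, 0.21, 0.22 and 0.21 at days 1, 3, 7, 12 and 18. The 10 interferon gamma genes had medians of 0.05, -0.04, 0.15, 0.08 and 0.21, and those of the 7 antigen processing genes were 0.14, 0.24, 0.12, 0.34 and 0.32. Over all genes the medians lay between -0.03 and 0.00. Of the 44 members, 34 were above their day 0 mean at day 7, 33 at day 12 and 37 at day 18, and these counts share the day 0 arrays. Groups that do not overlap numbered 8 members upward and 0 downward at day 18, where 6.16% of all genes stood fully above day 0 and 8.56% below.

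**Figure D2:**
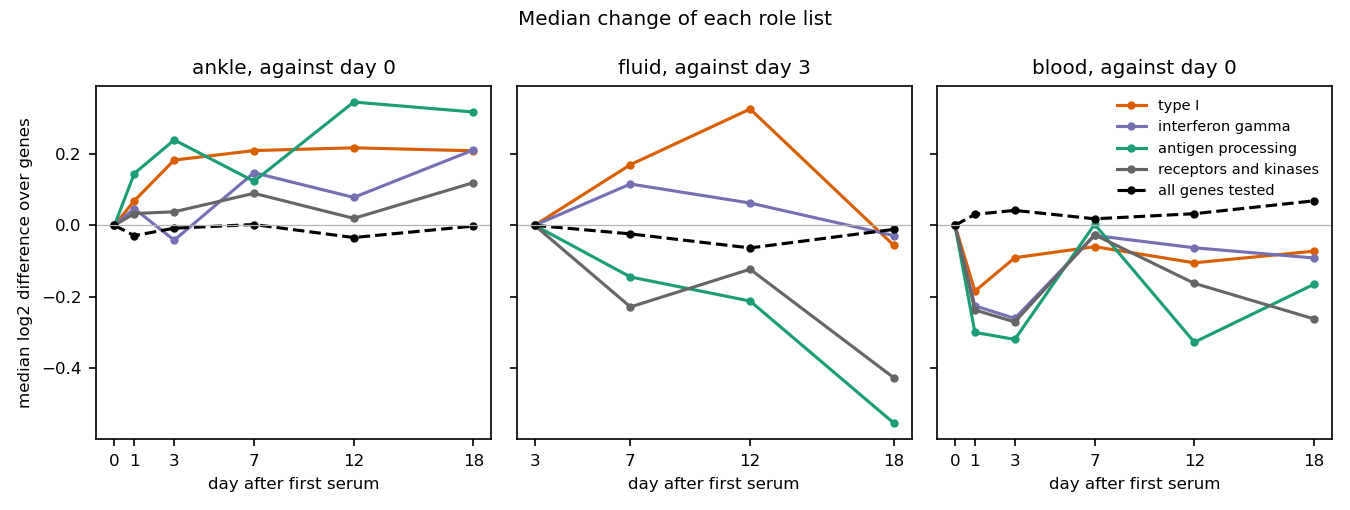
Median over genes of the log2 difference from the reference day (day 0 for ankle and blood, day 3 for fluid), plotted against day for 4 role lists in colour and all genes tested as a dashed line. In ankle the list medians reach 0.34, in fluid antigen processing falls to -0.55 at day 18 while type I peaks at 0.33 at day 12, and in blood most list medians lie below 0.

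Among interferon gamma genes of ankle, 0 of 10 passed at any day. Ifi30, the lysosomal thiol reductase that unfolds antigens, had the widest range. It stood at 6.81, 7.04, 6.60 and 6.40 on day 0, 7.36 and 7.23 on day 1 and 8.30, 7.08 and 6.98 on day 3. It stood at 8.43, 8.04, 7.35 and 6.73 on day 7, 7.68, 7.61 and 7.14 on day 12 and 7.39, 7.63 and 6.78 on day 18. Arrays of days 1 and 12 lay above all of day 0, while days 3, 7 and 18 each held an array within its range. The difference at day 7 was 0.92 ± 0.33 (adjusted p = 0.114).

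Irf8, a transcription factor of monocytes, B cells and dendritic cells, read 7.25, 7.33, 6.87 and 7.1 on day 0, 7.24 and 7.32 on day 1 and 7.99, 7.24 and 7.12 on day 3 in ankle. It read 7.88, 7.83, 7.35 and 7.34 on day 7, 7.97, 7.67 and 7.22 on day 12 and 7.54, 7.81 and 7.66 on day 18. Arrays of days 7 and 18 lay above all of day 0, and the difference at day 18 was 0.53 ± 0.22 (adjusted p = 0.306). Irf1, an early transcription factor of the interferon gamma response, read 7.28, 7.54, 7.53 and 7.41 on day 0, 7.26 and 7.66 on day 1 and 7.4, 7.41 and 6.85 on day 3. Later arrays read 7.32, 7.68, 6.98 and 7.37 on day 7, 7.79, 7.16 and 7.31 on day 12 and 7.66, 7.64 and 7.78 on day 18. Its day 18 arrays lay above all of day 0, with a difference of 0.25 ± 0.19 (adjusted p = 0.705), and the other days overlapped day 0.

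Of the antigen processing genes 0 of 7 passed in ankle. Psmb8, a catalytic subunit of the immunoproteasome, read 8.56, 8.68, 8.13 and 7.98 on day 0, 8.63 and 8.71 on day 1 and 9.28, 8.73 and 8.73 on day 3. It read 9.04, 9.06, 9.07 and 7.65 on day 7, 9.44, 8.81 and 8.43 on day 12 and 8.85, 9.06 and 8.46 on day 18. Day 3 lay above day 0 and the other days overlapped it. The difference was 0.56 ± 0.32 (adjusted p = 0.438) at day 12, and day 7 replicate 4 was the lowest ankle array of this gene. Tap1, a subunit of the peptide transporter, read 7.07, 6.69, 6.68 and 6.75 on day 0, 7.16 and 6.73 on day 1 and 7.83, 6.65 and 6.63 on day 3, and 7.90, 7.4, 7.03 and 6.89 on day 7, 7.45, 7.17 and 6.81 on day 12 and 7.09, 7.35 and 7.46 on day 18. Its day 18 arrays all lay above those of day 0, with a difference of 0.50 ± 0.27 (adjusted p = 0.527). Psme1, a subunit of the activator PA28, had its highest ankle mean on day 0 (8.36) and a lower mean at every later day. It read 8.54, 8.09, 8.38 and 8.43 on day 0, 8.46 and 8.07 on day 1 and 8.46, 8.03 and 7.70 on day 3, and 8.16, 8.03, 7.78 and 7.45 on day 7, 8.24, 8.09 and 7.77 on day 12 and 8.15, 7.87 and 7.83 on day 18. The difference was -0.50 ± 0.19 (adjusted p = 0.127) at day 7 and -0.41 ± 0.20 (adjusted p = 0.447) at day 18, with overlap of the arrays.

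Among receptors and kinases Jak2, the kinase bound to Ifngr2, rose at day 7. It read 5.55, 6.15, 5.50 and 5.56 on day 0, 5.61 and 5.83 on day 1 and 5.79, 5.63 and 5.65 on day 3, and 6.45, 6.13, 6.11 and 6.00 on day 7, 6.01, 5.98 and 6.01 on day 12 and 5.82, 5.72 and 5.89 on day 18. Day 0 replicate 2 lay within the day 7 values. Jak2 rose by 0.49 ± 0.14 (adjusted p = 0.0413), under background and on the probe set used, with 0.17 for the second probe set. The call was lost in 11 of 19 alternatives, among them the mean of both probe sets (adjusted p = 0.203) and the fits without day 0 replicate 1 (0.1), replicate 3 (0.139) or replicate 4 (0.121) and without day 7 replicate 1 (0.109), replicate 2 (0.0718) or replicate 3 (0.0774).

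Ifnar2, the signalling chain of the type I receptor, read 6.63, 6.20, 6.23 and 6.42 on day 0, 6.66 and 6.49 on day 1 and 7.37, 6.78 and 6.06 on day 3 in ankle, and 7.21, 6.87, 6.10 and 6.85 on day 7, 6.94, 6.44 and 6.20 on day 12 and 6.39, 6.49 and 6.94 on day 18. Its day 7 difference was 0.39 ± 0.26 (adjusted p = 0.491), with 1 array below all of day 0. Tyk2, the kinase bound to Ifnar1, read 7.26, 6.53, 7.33 and 7.18 on day 0, 7.18 and 6.77 on day 1 and 6.95, 7.06 and 7.16 on day 3, and 6.90, 7.09, 7.18 and 7.49 on day 7, 6.81, 6.97 and 7.06 on day 12 and 7.08, 7.23 and 7.24 on day 18. The groups overlapped at every day, and its differences from day 0 lay between -0.13 and 0.11.

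**Figure D3:**
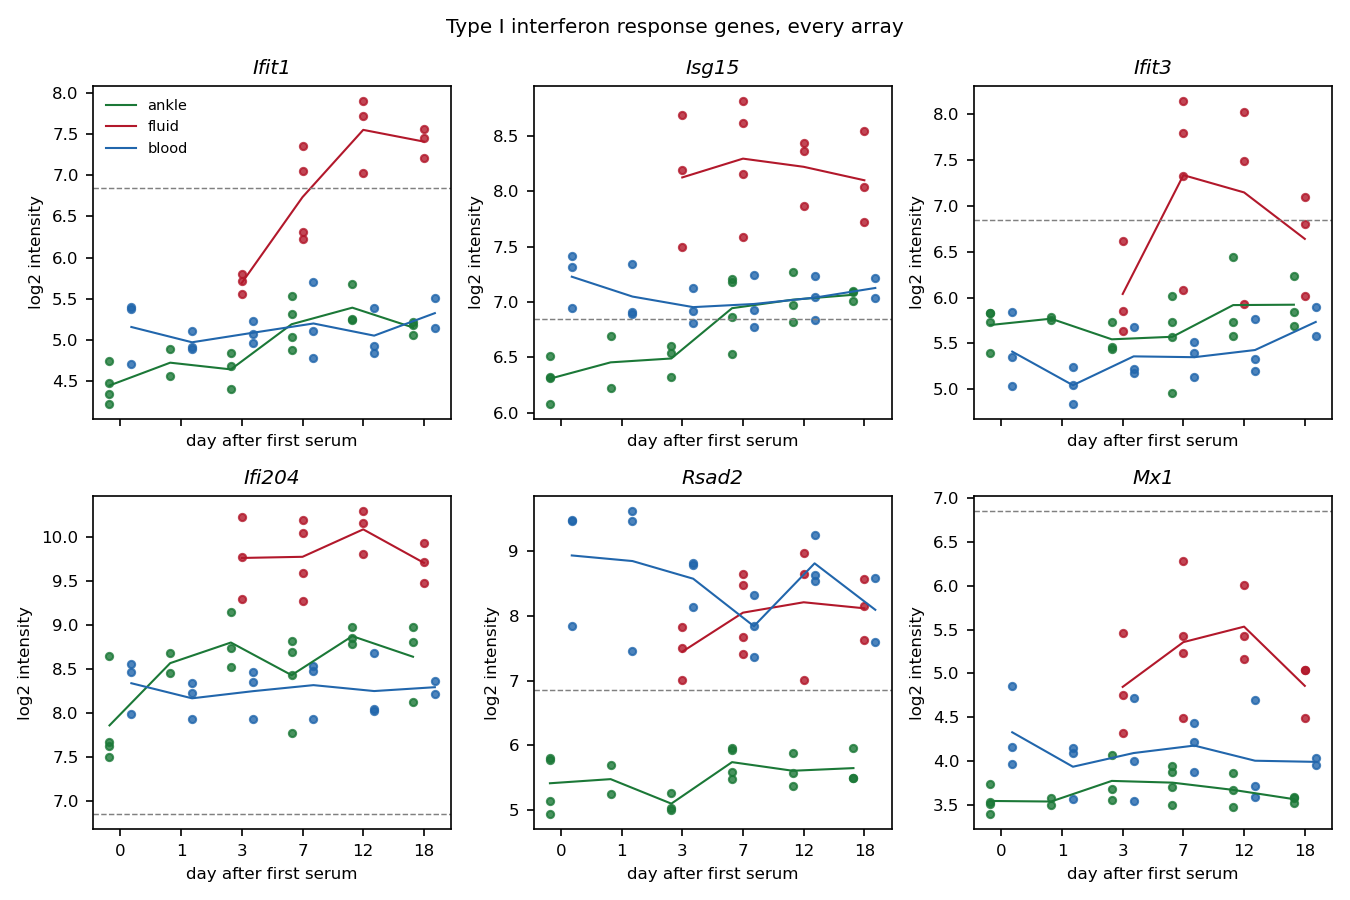
Log2 intensity of 6 type I interferon response genes in every array (points) against day, coloured by tissue, with lines through group means and the dashed line at background, 6.85. Ifit1 climbs in fluid from 5.56 to 5.80 at day 3 to 7.03 to 7.90 at day 12, its ankle arrays stay at or under 5.68, and Isg15 in fluid lies above all day-matched ankle arrays.

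Neutrophil markers moved over the same days. The summed intensity of 10 neutrophil markers in ankle was 914 to 950 on day 0, 2950 to 4646 on day 7, 2293 to 3527 on day 12 and 3636 to 4915 on day 18, and 7 of the 10 lay at or under background at day 0 against 2 at day 18. That of 13 monocyte and macrophage markers was 4148 to 5328 at day 0 and 3952 to 6251 at day 7. Their part in the rises of Ifit1, Isg15 and Jak2 was not tested. The beta-actin control gave a log2 ratio of 3′ over 5′ signal, higher where 5′ ends are under-represented, of 2.73 to 3.50 at day 0 and 3.34 to 3.83 at day 7. With that ratio as a covariate Isg15 had an adjusted p of 0.119 at day 7, 0.214 at day 12 and 0.0861 at day 18, Ifit1 had 0.0523 at day 18, and Jak2 had 0.116 at day 7, so that none of these calls was kept. Without the arrays holding liver transcripts, Ifit1 differed by 0.60 at day 7 (adjusted p = 0.0268) and 0.76 at day 12 (0.0193), and Isg15 passed at day 7 (0.0286) but not at day 12 (0.0526).

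Among 27 other genes of interferon signalling, 1 rose and 2 fell in ankle at day 7. Socs3, a feedback inhibitor of cytokine receptors, rose by 1.62 ± 0.35 (adjusted p = 0.00708). Irf4, a factor of lymphocytes and some macrophages, fell by 0.56 ± 0.14 (adjusted p = 0.0218), and Irf3, which switches on interferon beta, fell by 0.40 ± 0.12 (adjusted p = 0.0471). At day 12 Socs3 rose by 1.90 ± 0.37 (adjusted p = 0.00676) and Ptpn2, a phosphatase of Jak kinases, by 0.69 ± 0.19 (adjusted p = 0.0494), while Irf4 fell by 0.62 ± 0.15 (adjusted p = 0.0312). At day 18 none of the 27 passed, and none of 13 further genes of class I presentation passed at any ankle day.

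In fluid, Ifit1 was the member that rose, and Ifnar1 and Ifi30 fell. At day 7 against day 3, 1 of 44 members was higher and 1 lower, where 2.56% of all genes passed (2.17% higher and 0.388% lower). At day 12 it was 1 higher and 0 lower, where 2.7% passed (2.42% and 0.279%). At day 18 it was 1 higher and 2 lower, where 3.19% passed (2.28% and 0.909%). Each of these counts rests on 1 or 2 genes of 44.

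Ifit1 in fluid cells stood at 5.72, 5.56 and 5.80 on day 3, 6.22, 7.05, 7.35 and 6.31 on day 7, 7.72, 7.03 and 7.90 on day 12 and 7.56, 7.21 and 7.45 on day 18. Every array from day 7 on lay above all of day 3, and day 12 and day 18 lay above background. It rose by 1.04 ± 0.26 (adjusted p = 0.0489) at day 7, 1.86 ± 0.28 (adjusted p = 0.00111) at day 12 and 1.71 ± 0.28 (adjusted p = 0.00215) at day 18. The later calls were kept in all 16 alternatives run for each. At day 7 the call was lost in 10 of 17, among them the fits without day 3 replicate 1 (adjusted p = 0.115), replicate 2 (0.204) or replicate 3 (0.104) and without day 7 replicate 2 (0.117) or replicate 3 (0.14).

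The other Ifit genes, named here after their values were seen, did not pass. Ifit3 in fluid stood at 6.62, 5.86 and 5.64 on day 3, 8.14, 7.80, 7.32 and 6.08 on day 7, 8.02, 5.93 and 7.49 on day 12 and 6.02, 7.09 and 6.81 on day 18, and its differences from day 3 were 1.29 ± 0.49 (adjusted p = 0.291) at day 7 and 1.11 ± 0.53 (adjusted p = 0.407) at day 12. Ifit2 differed by 1.13 ± 0.34 (adjusted p = 0.12) and 1.21 ± 0.36 (adjusted p = 0.112) at those days. Isg15 stood at 8.69, 8.19 and 7.50 on day 3, 8.62, 8.81, 8.16 and 7.59 on day 7, 8.36, 7.87 and 8.44 on day 12 and 7.72, 8.04 and 8.54 on day 18. The days overlapped for Isg15, whose differences lay between -0.03 and 0.17. Ifi204 read 9.29, 10.23 and 9.77 on day 3, 9.27, 10.19, 10.05 and 9.59 on day 7, 10.16, 9.81 and 10.29 on day 12 and 9.47, 9.71 and 9.93 on day 18, also with overlap at every day.

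Ifnar1, the other chain of the type I receptor, stood at 7.62, 7.52 and 7.65 on day 3, 6.79, 7.01, 6.77 and 6.77 on day 7, 7.3, 7.02 and 6.65 on day 12 and 6.46, 6.81 and 6.98 on day 18. All later arrays lay below those of day 3. It fell by 0.77 ± 0.17 at day 7 (adjusted p = 0.0233) and by 0.85 ± 0.18 at day 18 (adjusted p = 0.0169), while the difference at day 12 was -0.61 ± 0.18 (adjusted p = 0.12). At day 7 it missed the threshold without day 3 replicate 1 (adjusted p = 0.0746), replicate 2 (0.0677) or replicate 3 (0.0923), without day 7 replicate 3 (0.0673) or replicate 4 (0.0515), and without all arrays of another preparation (0.274). At day 18 it was lost without day 3 replicate 3 (0.058), day 18 replicate 1 (0.122) or replicate 2 (0.054), and without all arrays of another preparation (0.0604).

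Ifi30 read 9.77, 10.17 and 9.13 on day 3, 9.45, 9.64, 8.63 and 8.37 on day 7, 9.02, 9.31 and 9.35 on day 12 and 8.07, 8.59 and 8.44 on day 18. Day 18 lay wholly below day 3. It fell by 1.32 ± 0.33 there, or 2.5-fold (adjusted p = 0.0395). This call was lost without day 3 replicate 1 (0.0974) or replicate 2 (0.196) and without day 18 replicate 1 (0.193), replicate 2 (0.0702) or replicate 3 (0.102), and without all arrays of another preparation (0.122).

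The other fluid series read as follows. Irf8 stood at 8.81, 9.49 and 9.03 on day 3, 8.89, 8.93, 8.96 and 8.56 on day 7, 8.59, 9.14 and 8.73 on day 12 and 8.53, 8.63 and 8.49 on day 18. Irf1 stood at 7.52, 7.76 and 7.73 on day 3, 7.97, 8.23, 7.78 and 7.3 on day 7, 8.04, 6.94 and 7.81 on day 12 and 7.12, 7.79 and 7.52 on day 18. Neither had a call, and the day 18 arrays of Irf8 all lay below those of day 3. Psmb8 stood at 9.55, 10.08 and 9.76 on day 3, 9.56, 10.17, 9.79 and 9.10 on day 7, 10.13, 9.77 and 10.04 on day 12 and 9.48, 9.63 and 9.09 on day 18. Tap1 stood at 8.12, 8.25 and 7.77 on day 3, 8.58, 8.22, 8.04 and 7.17 on day 7, 8.13, 7.59 and 7.75 on day 12 and 7.47, 7.39 and 7.67 on day 18. Tap1 at day 18 lay below all of day 3, and its difference was -0.53 ± 0.28 (adjusted p = 0.41). Psme1 stood at 8.74, 8.66 and 8.27 on day 3, 8.15, 8.72, 8.08 and 7.69 on day 7, 8.32, 8.21 and 8.50 on day 12 and 7.55, 7.98 and 7.97 on day 18. Jak2 stood at 6.54, 6.97 and 7.73 on day 3, 6.85, 6.90, 6.66 and 6.51 on day 7, 7.32, 6.62 and 7.32 on day 12 and 6.55, 6.64 and 6.78 on day 18. Psme1 at day 18 also lay below day 3, with a difference of -0.72 ± 0.24 (adjusted p = 0.132). Ifnar2 stood at 7.66, 8.29 and 8.17 on day 3, 7.15, 8.03, 7.24 and 7.50 on day 7, 7.74, 7.73 and 7.66 on day 12 and 7.21, 7.64 and 7.33 on day 18. Tyk2 stood at 7.33, 7.19 and 6.77 on day 3, 7.21, 6.92, 6.86 and 7.38 on day 7, 6.94, 6.94 and 7.04 on day 12 and 7.09, 7.25 and 7.2 on day 18. Tyk2 had overlapping days and Ifnar2 at day 18 lay below day 3.

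The median change of the type I genes in fluid was 0.17 at day 7, 0.33 at day 12 and -0.06 at day 18. That of the interferon gamma genes was 0.12, 0.06 and -0.03, and that of antigen processing was -0.14, -0.21 and -0.55, against -0.02, -0.06 and -0.01 over all genes. All 3 comparisons share the day 3 arrays. At day 18, 16 members stood wholly below day 3 and 4 wholly above, where 13.1% and 11.9% of all genes did.

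Fibroblast markers moved over the same days. The summed intensity of 9 such markers in fluid was 2535 to 4771 at day 3 and 8899 to 18061 later, with 4 of 9 at or under background at day 3 and 2 or 3 later. Neutrophil markers summed to 10239 to 18305 and monocyte and macrophage markers to 13340 to 23559 over the fluid arrays. Their part in the rise of Ifit1 and the falls of Ifnar1 and Ifi30 was not tested. The beta-actin ratio of 3′ over 5′ signal in fluid was 1.59 to 2.39 at day 3, 2.69 to 2.90 at day 7, 1.88 to 3.02 at day 12 and 2.02 to 3.61 at day 18, so that days 3 and 7 did not overlap. With that ratio as a covariate Ifnar1 had an adjusted p of 0.165 at day 7 and 0.0756 at day 18, Ifi30 had 0.114 at day 18 and Ifit1 had 0.121 at day 7, and none of these calls was kept. Without the arrays of another preparation Ifit1 differed by 1.52 at day 7 (adjusted p = 0.0281), 1.87 at day 12 (0.00397) and 1.71 at day 18 (0.0125). Of the 27 other signalling genes, Irf4 alone changed, and it fell by 0.72 ± 0.12 at day 7, 0.83 ± 0.13 at day 12 and 0.61 ± 0.13 at day 18 (adjusted p = 0.00216, 0.00111 and 0.0119).

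In blood no member passed at any day, and limma called 0 of 8251 genes (0%) in each of the 5 comparisons. At an unadjusted p under 0.05 the members numbered 3, 3, 0, 3 and 4 at days 1, 3, 7, 12 and 18, among 589, 1702, 168, 513 and 1693 genes, or 7.14%, 20.6%, 2.04%, 6.22% and 20.5% of all. Ifit1 in blood read 5.39, 4.71 and 5.37 on day 0, 4.89, 5.11 and 4.92 on day 1 and 5.07, 5.23 and 4.96 on day 3, and 4.79, 5.71 and 5.11 on day 7, 5.39, 4.93 and 4.84 on day 12 and 5.50 and 5.15 on day 18. Isg15 read 7.32, 6.95 and 7.42 on day 0, 6.91, 6.89 and 7.35 on day 1 and 6.81, 6.92 and 7.13 on day 3, and 6.77, 7.25 and 6.93 on day 7, 6.84, 7.23 and 7.04 on day 12 and 7.03 and 7.22 on day 18. Both genes had values of later days within the range of day 0, and the difference at day 7 was 0.04 ± 0.22 for Ifit1 and -0.25 ± 0.17 for Isg15 (adjusted p = 0.999 and 0.999).

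Ifi204 in blood read 8.56, 7.99 and 8.46 on day 0, 7.93, 8.33 and 8.23 on day 1, 8.47, 8.35 and 7.92 on day 3, 8.48, 8.53 and 7.93 on day 7, 8.68, 8.02 and 8.04 on day 12 and 8.37 and 8.22 on day 18. Ifi30 read 7.75, 7.48 and 7.56 on day 0, 7.33, 7.75 and 7.37 on day 1, 7.66, 7.49 and 7.18 on day 3, 7.53, 7.52 and 7.71 on day 7, 7.85, 7.26 and 7.26 on day 12 and 7.61 and 8.14 on day 18. Both overlapped day 0 at every later day. Irf8 read 10.12, 10.20 and 10.15 on day 0, 9.63, 10.48 and 9.95 on day 1, 9.99, 9.38 and 9.97 on day 3, 10.15, 10.52 and 10.60 on day 7, 10.22, 9.82 and 9.64 on day 12 and 9.89 and 10.23 on day 18. Irf1 read 9.43, 8.22 and 8.72 on day 0, 8.89, 7.57 and 8.53 on day 1, 8.93, 8.09 and 8.45 on day 3, 9.26, 8.44 and 8.60 on day 7, 9.26, 8.59 and 8.45 on day 12 and 8.45 and 9.03 on day 18. Irf8 at day 3 lay below all day 0 arrays, with a difference of -0.38 ± 0.23 (adjusted p = 0.308). Psmb8 read 10.71, 10.22 and 10.54 on day 0, 10.46, 9.98 and 10.16 on day 1, 10.52, 10.13 and 10.05 on day 3, 10.16, 10.64 and 10.38 on day 7, 10.46, 10.21 and 9.94 on day 12 and 10.46 and 10.53 on day 18. Tap1 read 9.18, 8.46 and 8.70 on day 0, 8.61, 8.28 and 8.32 on day 1, 8.95, 8.20 and 8.20 on day 3, 8.85, 9.16 and 9.11 on day 7, 8.79, 8.19 and 8.16 on day 12 and 8.53 and 8.59 on day 18. Both overlapped day 0 at every day. Psme1 read 8.80, 8.86 and 8.85 on day 0, 8.58, 8.39 and 8.70 on day 1, 8.78, 8.27 and 8.52 on day 3, 8.63, 8.88 and 9.09 on day 7, 8.73, 8.54 and 8.35 on day 12 and 8.48 and 8.96 on day 18. Jak2 read 7.06, 7.26 and 7.31 on day 0, 7.13, 6.91 and 6.94 on day 1, 7.22, 6.41 and 6.36 on day 3, 7.49, 6.74 and 7.29 on day 7, 7.58, 6.73 and 6.49 on day 12 and 6.37 and 6.74 on day 18. Psme1 lay below all of day 0 at days 1, 3 and 12, and Jak2 at day 18, with a difference of -0.66 ± 0.30 (adjusted p = 0.241). Ifnar2 read 7.19, 6.90 and 6.97 on day 0, 6.63, 6.87 and 6.84 on day 1, 6.73, 6.72 and 6.80 on day 3, 6.97, 7.18 and 7.29 on day 7, 7.04, 6.67 and 6.53 on day 12 and 6.63 and 6.53 on day 18. Tyk2 read 7.13, 7.19 and 7.05 on day 0, 7.4, 7.51 and 7.23 on day 1, 7.09, 7.70 and 7.82 on day 3, 7.27, 7.28 and 7.35 on day 7, 7.23, 7.38 and 7.75 on day 12 and 7.66 and 7.36 on day 18. Ifnar2 lay below all of day 0 at days 1, 3 and 18 and Tyk2 above it at days 1, 7, 12 and 18. At day 18 Ifnar2 differed by -0.44 ± 0.16 (adjusted p = 0.22) and Tyk2 by 0.38 ± 0.20 (adjusted p = 0.268). Groups that do not overlap numbered 4 members upward and 8 downward at day 18, where 34.9% and 20.7% of all genes did, with 2 arrays at that day.

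The members' median difference from day 0 in blood was -0.23, -0.22, -0.03, -0.14 and -0.10 at days 1, 3, 7, 12 and 18, while that of all genes lay between 0.02 and 0.07. Only 6 of 44 members were above day 0 at days 1, 3 and 12. These comparisons share the day 0 arrays. When quantile normalization was applied anew, the antigen processing median in blood moved from -0.30 to -0.15 at day 1. At day 18 it moved from -0.16 to 0.04. The type I and interferon gamma medians stayed below 0 at every day in that run.

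The ankle response, the mean of the later days against day 0, differed from the blood response for 1 of 44 members, where 4.12% of all genes passed. Isg15 had a mean change of 0.57 in ankle and -0.20 in blood, a difference of 0.78 ± 0.19 (adjusted p = 0.0167). The call was lost without replicate 3 of ankle (adjusted p = 0.0841), without replicate 1 of blood (0.124) or replicate 3 of blood (0.155), and in a fit of all 49 arrays (0.0949). Ifit1 had 0.65 and 0.01, a difference of 0.64 ± 0.22 (adjusted p = 0.105), and Ifi204 one of 0.89 ± 0.30 (adjusted p = 0.0877). The median over members was 0.29 against -0.07 for all genes, with 0.40 for type I, 0.29 for interferon gamma and 0.57 for antigen processing. Of the pathway genes, Ptpn2 passed with a difference of 0.96 ± 0.25 (adjusted p = 0.0218).

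At day 0 ankle stood below blood for most members. There 30 of 44 members were lower and 0 higher in ankle, where 19.8% of all genes were lower and 22.4% higher. The lower members were 11 of 19 type I, 6 of 10 interferon gamma, 7 of 7 antigen processing, 5 of 7 receptor and kinase genes and Irf5. Sp100, a nuclear body protein, differed by -2.99 ± 0.19 (adjusted p = 6.38e-14) and Jak1, the kinase shared by both interferon receptors, by -1.79 ± 0.12, or 3.46-fold (adjusted p = 5.26e-13). Irf8 differed by -3.02 ± 0.22, or 8.11-fold (adjusted p = 1.66e-12), and Psmb9, another immunoproteasome subunit, by -2.66 ± 0.22 (adjusted p = 2.59e-11). Rsad2, an antiviral enzyme, differed by -3.52 ± 0.39 (adjusted p = 1.14e-08), Trim30a, a ubiquitin ligase, by -2.11 ± 0.26 (adjusted p = 9.8e-08), Psmb8 by -2.15 ± 0.27, or 4.44-fold (adjusted p = 1.34e-07), and Tap1 by -1.98 ± 0.26 (adjusted p = 2.37e-07). The other probe set of Trim30a differed by 0.19 and that of Tap1 by -0.44. Of the 30 calls, 9 were lost in at least 1 alternative, those of Mx1, Mx2, Tapbp, Ifnar2, Psme1, Ifngr1, Irf7, Irf5 and Ifi30, and leaving out 1 replicate number at a time left 24 to 29.

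Markers of several cell types differed between ankle and blood at day 0. Neutrophil markers summed to 914 to 950 in ankle and 4798 to 8060 in blood, and NK cell markers to 78 to 110 and 764 to 899. Monocyte and macrophage markers went the other way, at 4148 to 5328 in ankle and 2198 to 3273 in blood. Fibroblast markers summed to 17945 to 28430 in ankle and 1039 to 1312 in blood, and skeletal muscle markers to 6495 to 18318 and 505 to 559. Summed intensity of 9 T cell markers was 677 to 871 in ankle and 2529 to 3297 in blood at day 0, and of 7 B cell markers 377 to 506 and 6381 to 7901, with 7 of 7 B cell markers at or under background in ankle. The beta-actin ratio was 2.73 to 3.50 in ankle and 1.83 to 2.58 in blood. The part of these markers' cells and of the ratio in the differences was not tested. The median difference was -0.48 for type I, -0.86 for interferon gamma and -0.95 for antigen processing, against 0.05 for all genes. Of 27 other signalling genes 4 were higher and 18 lower in ankle, with Ptpn6 at -2.33 ± 0.21 (adjusted p = 2.63e-10) and Trim25 at -2.34 ± 0.24 (adjusted p = 2.52e-09), and H2-M3, a class I molecule, differed by -1.28 ± 0.14 (adjusted p = 1.32e-08).

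Between fluid and blood, type I genes were more often higher than lower in fluid, and interferon gamma and antigen processing genes more often lower. That contrast between lists was not tested. Over days 3, 7, 12 and 18, 8 of 19 type I genes were higher in fluid and 4 lower, while 1 of 10 interferon gamma genes was higher and 6 lower, and 0 of 7 antigen processing genes were higher and 6 lower. Of the receptor and kinase genes 3 of 7 were higher and 2 lower, and Irf5 was higher. Over all members 13 were higher, where 24.8% of all genes were, and 18 lower, where 34% were, so that over all members both shares lay near the background. The median difference was 0.20 for type I, -0.46 for interferon gamma and -0.55 for antigen processing, against -0.08 for all genes. The signs of these medians held at each of the 4 days. For type I the day-matched median was 0.36, 0.32, 0.29 and 0.02 at days 3, 7, 12 and 18, for interferon gamma -0.61, -0.24, -0.47 and -0.41, and for antigen processing -0.10, -0.71, -0.22 and -0.88.

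The type I genes higher in fluid included both the members that rose in ankle. Ifit1 differed by 1.68 ± 0.13 (adjusted p = 3.52e-11) and Isg15 by 1.16 ± 0.14, or 2.23-fold (adjusted p = 9.14e-08). Ifi204 differed by 1.56 ± 0.13, or 2.94-fold (adjusted p = 8.88e-11), with -0.20 and 1.38 for its other probe sets, and Lgals3bp, a secreted galectin ligand, by 0.86 ± 0.10 (adjusted p = 1.83e-08). Ifit3, Ifih1, Usp18 and Mx1 were higher too. Arrays of Isg15, Ifi204 and Lgals3bp in fluid lay wholly above those in blood, as in 6.76% of all genes. Those of Sp100 and Jak1 lay wholly below, as in 4.86%. Both shares over all members lay near those of all genes. Of the opposite sign, Sp100 differed by -1.60 ± 0.10 (adjusted p = 1.1e-13), Ly6e, a surface protein of lymphocytes, by -0.72 ± 0.10, or 1.65-fold (adjusted p = 1.36e-06), Mx2 by -0.25 ± 0.07 (adjusted p = 0.00354) and the RNA editing enzyme gene Adar by -0.18 ± 0.06 (adjusted p = 0.0142). Averaging its probe sets gave Adar -0.01 (adjusted p = 0.878), so that it did not pass, and it also missed the threshold without blood replicate 2 (0.0996) or replicate 3 (0.0577).

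Of the interferon gamma genes lower in fluid, Irf8 differed by -1.21 ± 0.11, or 2.32-fold (adjusted p = 7.27e-10), and Irf1 by -1.05 ± 0.18, or 2.07-fold (adjusted p = 1.46e-05). The GTPase genes Igtp, Ifi47 and Gbp3 and the feedback inhibitor Socs1 were lower as well. The call of Gbp3 was lost without replicate 1 of blood (adjusted p = 0.0553). Ifi30 went the other way with 1.49 ± 0.14, or 2.8-fold (adjusted p = 8.39e-10).

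Among antigen processing genes, Psmb8 differed by -0.62 ± 0.12 (adjusted p = 6.6e-05) and Tap1 by -0.76 ± 0.14 (adjusted p = 3.32e-05), and Psmb9, Tap2, Psmb10 and Psme1 were lower too, while Tapbp, the tapasin gene, differed by -0.03 ± 0.24 (adjusted p = 0.914). The Tap2 call was lost without replicate 1 of blood (0.0714). Of the receptors, Ifnar2 was higher by 0.85 ± 0.10 (adjusted p = 2.5e-08), and Ifnar1 and Ifngr2 were higher as well. Ifngr2 did not pass without replicate 2 of blood (0.0594). Jak1 was lower by 0.75 ± 0.09, or 1.68-fold (adjusted p = 5.67e-08), and Tyk2 by 0.37 ± 0.09 (adjusted p = 0.00123).

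**Figure D4:**
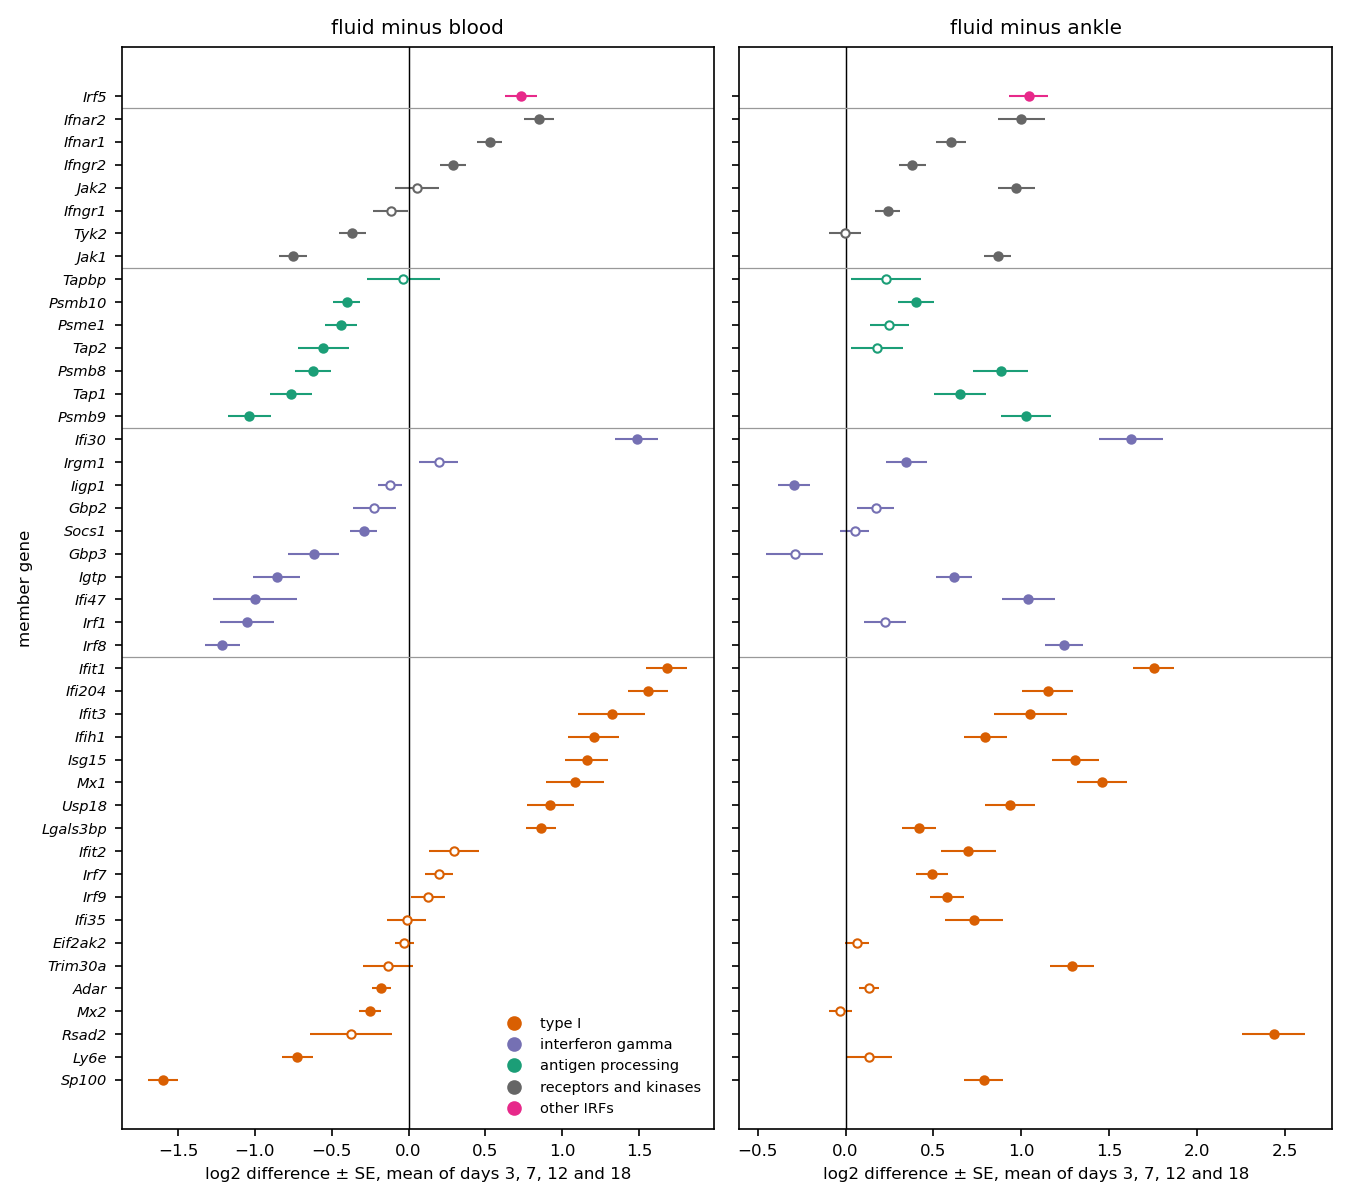
Log2 difference of fluid from blood (left) and from ankle (right) for each of the 44 genes, as the mean of days 3, 7, 12 and 18 with standard error bars; filled points passed an adjusted p of 0.05 and colour marks the role. On the left, points of antigen processing lie at or below 0 and those of type I spread from -1.60 to 1.68; on the right nearly all lie above 0.

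Of 13 further class I presentation genes 5 were higher and 3 lower in fluid than in blood. Named after their values were seen, Psmb5, Psmb6 and Psmb7, the standard proteasome subunits that immunoproteasome subunits replace, were higher by 1.55 ± 0.23 (adjusted p = 2.73e-06), 0.90 ± 0.12 (adjusted p = 8.47e-07) and 0.53 ± 0.11 (adjusted p = 0.000223). The class I heavy chain genes H2-K1 and H2-D1 were lower. Of 27 other signalling genes 8 were higher and 7 lower. Among them Irf4 differed by -2.12 ± 0.11 (adjusted p = 7.61e-15), Ciita, the master regulator of class II genes, by -0.48 ± 0.06 (adjusted p = 7.49e-08) and Pml, which builds nuclear bodies with Sp100, by -0.59 ± 0.07 (adjusted p = 1.41e-07).

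Monocyte and macrophage markers summed to 13340 to 23559 in fluid and 1749 to 4472 in blood at the matched days, T cell markers to 429 to 592 and 1967 to 3331, B cell markers to 364 to 541 and 5109 to 7620, and NK cell markers to 107 to 149 and 589 to 1414. In fluid 8 of 9 T cell markers and 4 of 4 measured NK cell markers lay at or under background. Fibroblast markers summed to 2535 to 18061 in fluid and 1023 to 1295 in blood at these days. Plasmacytoid dendritic cell markers summed to 275 to 450 and 1044 to 2060, and red cell markers to 1215 to 11450 and 11284 to 22511. The part of these cell types in the differences was not tested. Without the arrays of another preparation 31 members passed, as in the whole set.

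Fluid stood above ankle for most members. Over the same days 31 of 44 were higher in fluid and 1 lower, where 18.7% of all genes were higher and 19.4% lower. The higher members were 15 of 19 type I, 5 of 10 interferon gamma, 4 of 7 antigen processing, 6 of 7 receptor and kinase genes and Irf5. Ifit1 differed by 1.75 ± 0.12 (adjusted p = 6.97e-13), Rsad2 by 2.43 ± 0.18 (adjusted p = 5.33e-12), Irf8 by 1.24 ± 0.11, or 2.37-fold (adjusted p = 1.67e-10), and Jak1 by 0.86 ± 0.08, or 1.82-fold (adjusted p = 2.88e-10). Mx1, a GTPase against viruses, differed by 1.46 ± 0.14 (adjusted p = 1.34e-09), Trim30a by 1.29 ± 0.12 (adjusted p = 1.34e-09), Isg15 by 1.31 ± 0.13, or 2.47-fold (adjusted p = 4e-09), and Jak2 by 0.97 ± 0.10 (adjusted p = 9.87e-09). Iigp1, an immunity GTPase, was lower by 0.29 ± 0.09 (adjusted p = 0.0122), a call lost without replicate 2 of fluid (0.072). That of Ifngr1, which was higher, was lost without replicate 3 of ankle (0.0655) or replicate 1 of fluid (0.0762). The median difference was 0.79 for type I, 0.28 for interferon gamma and 0.40 for antigen processing, against -0.04 for all genes. Without the arrays with liver transcripts 33 members passed. Cell markers differed between these tissues. At the matched days monocyte and macrophage markers summed to 13340 to 23559 in fluid and 3952 to 6592 in ankle, and neutrophil markers to 10239 to 18305 and 1179 to 4915. Fibroblast markers summed to 2535 to 18061 in fluid and 19923 to 27791 in ankle, and 9 skeletal muscle markers to 470 to 633 and 2650 to 13634, with at least 8 of the 9 at or under background in fluid. The beta-actin ratio was 1.59 to 3.61 in fluid and 3.25 to 4.25 in ankle at these days. The part of these cell types and of the ratio in the differences was not tested. Of 27 other signalling genes 16 were higher and 3 lower. Ptpn6, a phosphatase of blood cells, differed by 1.91 ± 0.12 (adjusted p = 1.68e-13), the exonuclease gene Isg20 by 1.96 ± 0.15 (adjusted p = 2.44e-11), the ubiquitin ligase gene Trim25 by 1.74 ± 0.14 (adjusted p = 4.7e-11) and Ifitm1 by 0.72 ± 0.08 (adjusted p = 8.16e-09).

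Across both comparisons, 13 members were higher in fluid than in both other tissues, among them 8 of the 19 type I genes and 0 of the 7 antigen processing genes. Between the other tissues, below blood and above ankle, lay 9 members in fluid, of which 4 were antigen processing genes, 3 interferon gamma genes, 1 a type I gene and 1 a kinase gene. The 2 comparisons share the fluid arrays. Of all genes, 24.8% were higher and 34% lower in fluid than in blood, and 18.7% were higher than in ankle. The share of all genes with either joint pattern was not counted, so these 2 counts have no background to be read against.

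**Figure D5:**
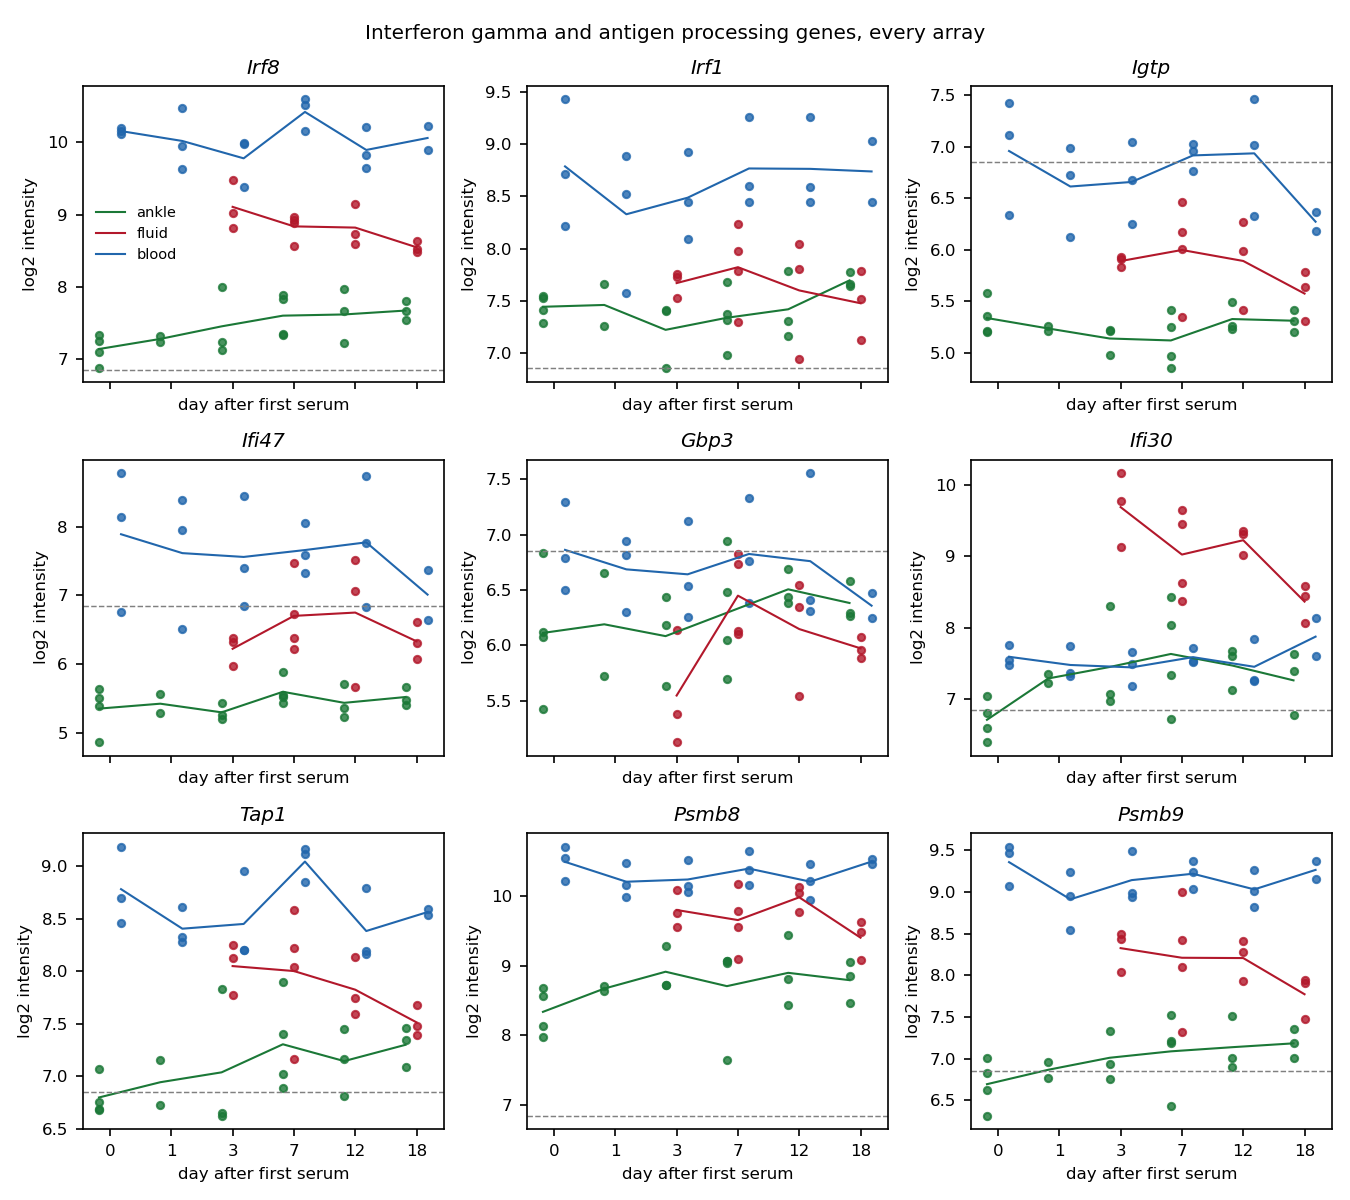
Log2 intensity of 6 interferon gamma genes and 3 antigen processing genes in every array (points) against day, coloured by tissue, with lines through group means and the dashed line at background, 6.85. Irf8, Tap1, Psmb8 and Psmb9 are ordered blood, fluid, ankle by group mean at each matched day, while Ifi30 is highest in fluid and falls there from 9.69 to 8.37.

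The remaining members are given by the range of their group means. Among type I genes, Ifit2 ranged over 4.37 to 4.71 in ankle, 4.40 to 5.61 in fluid and 4.64 to 5.06 in blood. Ifit3 ranged over 5.54 to 5.92 in ankle, 6.04 to 7.33 in fluid and 5.04 to 5.73 in blood, and Rsad2 over 5.10 to 5.74 in ankle, 7.45 to 8.21 in fluid and 7.84 to 8.93 in blood. Irf7, the amplifier of interferon alpha production, ranged over 6.09 to 6.42 in ankle, 6.66 to 6.98 in fluid and 6.51 to 6.83 in blood. Irf9, the DNA-binding part of the complex that reads ISRE, ranged over 8.31 to 8.81 in ankle, 9.09 to 9.40 in fluid and 9.02 to 9.38 in blood. Both were called above ankle in fluid and had no call against blood. Mx1 had means of 3.54 to 3.77 in ankle, 4.85 to 5.53 in fluid and 3.93 to 4.33 in blood, and Mx2 of 4.46 to 4.58 in ankle, 4.38 to 4.70 in fluid and 4.60 to 4.88 in blood. Both lay under background throughout. Usp18, the protease that removes Isg15 from proteins, had means of 6.60 to 7.01 in ankle, 7.45 to 8.06 in fluid and 6.69 to 6.94 in blood. Ifi35 had 7.44 to 7.99 in ankle, 7.86 to 8.75 in fluid and 8.08 to 8.48 in blood, and Ifih1, the RNA sensor MDA5, had 6.43 to 6.81 in ankle, 7.21 to 7.56 in fluid and 5.92 to 6.53 in blood. Eif2ak2, the kinase PKR, had 4.97 to 5.18 in ankle, 4.99 to 5.43 in fluid and 5.14 to 5.29 in blood, under background and with no call in any of the 17 comparisons. Adar had 5.97 to 6.26 in ankle, 6.20 to 6.41 in fluid and 6.50 to 6.65 in blood, and Trim30a had 3.75 to 4.24 in ankle, 5.07 to 5.54 in fluid and 5.32 to 5.91 in blood. Sp100 had 5.53 to 5.95 in ankle, 6.55 to 6.79 in fluid and 8.10 to 8.52 in blood, with its highest levels in blood. Lgals3bp had 6.09 to 6.39 in ankle, 6.37 to 6.92 in fluid and 5.71 to 5.93 in blood, and Ly6e had 11.33 to 11.86 in ankle, 11.57 to 12.15 in fluid and 12.47 to 12.74 in blood.

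Among interferon gamma genes, Gbp2, a guanylate binding protein, had group means of 5.72 to 5.96 in ankle, 5.46 to 6.17 in fluid and 5.85 to 6.44 in blood, with no call. Gbp3 had 6.08 to 6.51 in ankle, 5.55 to 6.45 in fluid and 6.36 to 6.86 in blood, and Iigp1 had 5.34 to 5.51 in ankle, 5.02 to 5.30 in fluid and 5.14 to 5.41 in blood. Irgm1, a regulator of the immunity GTPases, had 4.78 to 5.16 in ankle, 5.29 to 5.60 in fluid and 4.96 to 5.62 in blood. Its call in fluid against ankle was lost without replicate 1 of ankle (adjusted p = 0.106) or replicate 3 of fluid (0.162). Igtp had 5.12 to 5.34 in ankle, 5.57 to 6.00 in fluid and 6.27 to 6.96 in blood, and Ifi47 had 5.30 to 5.60 in ankle, 6.22 to 6.75 in fluid and 7.01 to 7.89 in blood. Both GTPase genes were highest in blood and lowest in ankle. Socs1 had 6.01 to 6.23 in ankle, 6.12 to 6.27 in fluid and 6.30 to 6.61 in blood.

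For antigen processing, Tap2, the partner of Tap1, had means of 6.87 to 7.21 in ankle, 6.82 to 7.48 in fluid and 7.57 to 7.93 in blood. Tapbp had 8.88 to 9.28 in ankle, 9.13 to 9.78 in fluid and 9.21 to 9.71 in blood, and Psmb9 had 6.69 to 7.18 in ankle, 7.77 to 8.33 in fluid and 8.91 to 9.36 in blood. Psmb10, another immunoproteasome subunit, had 8.56 to 8.72 in ankle, 8.66 to 9.37 in fluid and 9.28 to 9.65 in blood. Of the receptors, Ifngr1 had 6.62 to 6.81 in ankle, 6.72 to 7.18 in fluid and 6.90 to 7.3 in blood, and Ifngr2 had 5.02 to 5.19 in ankle, 5.42 to 5.59 in fluid and 5.12 to 5.43 in blood. Ifngr2 lay under background throughout. Ifnar1 had 6.39 to 6.58 in ankle, 6.75 to 7.60 in fluid and 6.39 to 6.65 in blood, and Jak1 had 7.73 to 7.87 in ankle, 8.48 to 8.80 in fluid and 9.16 to 9.58 in blood. The ranges of Jak1 did not overlap between tissues. Irf5 had 7.00 to 7.45 in ankle, 8.05 to 8.95 in fluid and 7.38 to 8.0 in blood.

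The ligands gave little signal. Of 21 interferon genes considered, 10 were analysed, and 0 passed in any comparison within a tissue. Interferon gamma, Ifng, had group means of 2.61 to 2.78 in ankle, 2.56 to 2.68 in fluid and 3.77 to 4.36 in blood, and Ifnb1 had means of 4.11 to 4.75 over all groups, all under background. Ifng was lower in fluid than in blood by 1.23 ± 0.09 (adjusted p = 8.51e-12), a difference between values in the range of the negative controls. Ifng differed by -1.64 ± 0.16 (adjusted p = 8.19e-10) between ankle and blood at day 0. Over the 16 groups, means were 5.12 to 5.80 for Ifna2, 4.94 to 5.60 for Ifna4, 6.35 to 7.01 for Ifna5 and 4.96 to 5.47 for Ifna7. They were 6.66 to 7.19 for Ifna9, 2.80 to 3.13 for Ifna11, 4.50 to 4.79 for Ifna15 and 5.86 to 6.30 for Ifnab. Only Ifna5 and Ifna9 of these 8 had any mean above background, and Ifna9 differed by -0.40 ± 0.08 (adjusted p = 0.000164) between fluid and blood.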

How the data were processed

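Affymetrix U74Av2 arrays of 49 samples were used. The deposited values are RMA intensities on a linear scale, background-corrected, normalized and summarised by the authors per the submitters' processing notes, and the version of RMA was not given in the sources used here. RMA makes the arrays' distributions alike, so that a shift of all genes together cannot be seen. Scanner files were not used here. From 12488 probe sets, 10833 had 1 gene symbol, 396 had several, and 8251 genes were tested. Levels were taken as log2 of the intensity. Models with 1 mean per day were fitted to each tissue on its own by limma (version 3.58.1, R 4.3.3), using lmFit, then eBayes allowing the variance to follow the intensity. Fits over a pair of tissues gave the tissue comparisons as means over matched days. Benjamini-Hochberg adjustment ran over all 8251 genes in each of 17 comparisons, at a threshold of 0.05, two-sided. The code was tested on simulated data. The number of arrays, 2 to 4 per group, limits the precision.

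Members and lists were chosen with earlier results of these data known. All members are named. Values were given for up to 8 called members per comparison by smallest p and for called members against their list's direction. The 3 members per list with the widest range of ankle means were given array by array and followed through the comparisons, and up to 4 called pathway genes were named per comparison. Other genes given with values were chosen after their values were seen. Alternatives changed the normalization, the filter or floor on low signal, the probe set rule, array weights, the trend, the samples fitted, a replicate block, the beta-actin ratio as a covariate, and left out arrays.

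Replicate numbers were not taken to pair samples. The deviations of same-numbered samples correlated below 0.1 for some pairs in each tissue. The lowest correlation was -0.18 in ankle, -0.31 in fluid and -0.45 in blood, and the highest was 0.73, 0.68 and 0.82. Medians by replicate number ran from -0.09 for fluid replicate 1 to 0.41 for the 1 pair of ankle replicate 4. Whether some same-numbered samples were processed together could not be settled from these values. Labels describe the ankle extraction in conflicting ways, and the extraction could not be settled from them. Ifi204, Irf7 and Ly6e rest on probe sets that the array design marks as shared by a gene family, so their values are uncertain.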

Additional observations from a re-analysis of the deposited data

Results flagged for a closer look

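In groups of 4 arrays, 10 of 132 tests found an array far from the other 3 by Dixon's criterion, and chance gives about 1 in 20. Ankle day 0 replicate 2 held 3 of them, at 8.64 for Ifi204 (others 7.49 to 7.66), 9.45 for Tapbp (8.59 to 8.74) and 6.15 for Jak2 (5.5 to 5.56). Ankle day 0 replicate 1 held 5.21 for Ifngr2 (4.95 to 4.97) and 7.45 for Irf5 (6.82 to 6.90), and is one of the arrays with liver transcripts. Ankle day 7 replicate 1, another such array, held 5.31 for Eif2ak2 (4.95 to 5.01) and 6.20 for Iigp1 (5.25 to 5.32). Psmb8 stood at 7.65 in ankle day 7 replicate 4 (9.04 to 9.07). In fluid at day 7, Usp18 stood at 7.00 in replicate 4 (8.33 to 8.50), an array of another preparation, and Ifnar1 at 7.01 in replicate 2 (6.77 to 6.79).

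The response of Isg15 differed between ankle and blood by 0.78 in the test of that difference, as given above.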

How the results depend on the processing

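No call reversed in any alternative run. Of 13 calls of members within a tissue, 4 were kept in every alternative that tested them (Ifit1 in ankle at days 7 and 12 and in fluid at days 12 and 18) and 9 were lost in at least 1. Of 31 calls in fluid against blood 26 were kept throughout, as were 29 of 32 in fluid against ankle and 21 of 30 in ankle against blood. Counts of called members moved most with array weights, to 2, 10, 19 and 17 in ankle at days 3, 7, 12 and 18 (from 0, 3, 2 and 2), to 17, 14 and 7 in blood at days 3, 12 and 18 (from 0), to 10, 18 and 21 in fluid at days 7, 12 and 18 (from 2, 1 and 3) and to 22 for the ankle response against that of blood (from 1). The cause was not tested. Shares of all genes called in these alternative runs are not given here, so the counts have no background to be read against. With all 49 arrays in 1 fit the counts were 0 in ankle at day 18, 5, 4 and 6 in fluid, and 0 for the response difference. The beta-actin ratio as a covariate gave 1, 1 and 0 in ankle at days 7, 12 and 18, and 1 in fluid at days 7 and 18. With the dimmest genes left out, where fewer are tested, Ifit1 was itself left out, so its calls were not tested in that run. There was then 1 in ankle at day 12 and day 18, 1 in fluid at day 7 and 0 at day 12. A floor at the 20th percentile gave 1 in ankle at day 18 and 1 in fluid at day 7. In fluid at day 7 there was also 1 with quantile normalization anew, arrays centred on their median, no intensity trend, or without arrays of another preparation, which also gave 1 at day 18. Without arrays holding liver transcripts there was 1 in ankle at day 12.

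With the replicate number as a block, counts were 5 in ankle at day 7, 2 in fluid at day 12 and 6 in fluid at day 18, and the call of Ifnar1 in fluid at day 7 was lost (adjusted p = 0.0863). The numbers were not taken to pair the samples in the main fits.

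Leaving out 1 replicate at a time gave 0 to 1 called members in ankle at day 3, 1 to 4 at day 7, 1 to 4 at day 12 and 0 to 1 at day 18. It gave 0 to 1 in blood at day 3, 0 to 2, 1 to 3 and 1 to 2 in fluid at days 7, 12 and 18, and 0 to 3 for the response difference. The tissue comparisons kept 24 to 29 in ankle against blood, 29 to 33 in fluid against blood and 31 to 34 in fluid against ankle. Signal over background limits the rest, since 11 members had no group mean above 6.85, nor had 48.5% of all genes.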
